A study of Mus musculus with 20 samples.

Results

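The 10 genes described here encode proteins of lipolysis and of the lipid droplet in adipocytes, and were taken by symbol from the 25219 genes of the deposited mouse table. They are the lipases Pnpla2, Lipe and Mgll, the regulators Abhd5 and G0s2 of the first lipase, the droplet proteins Plin1, Plin4 and Cidec, the phosphodiesterase Pde3b and the glycerol channel Aqp7. RNA was measured in inguinal white adipose tissue (iWAT) and brown adipose tissue (BAT) of male mice on a mixed C57Bl/6 background, with 5 libraries of each genotype in each tissue. Both genotypes carried floxed alleles of Igbp1, the gene of the phosphatase protector α4, and the Ai-α4KO mice also carried Adiponectin-CreERT2, a tamoxifen-inducible recombinase made in adipocytes. Control mice lacked that transgene, and the labels give their genotype as WT. Every animal received tamoxifen at 100 mg/kg by intraperitoneal injection from 2 months of age (5 doses within 6 days), and tissue was taken 1 week after recombination. The recombinase is not directed to the other cells of the tissue, and the sources used here do not say whether both tissues came from the same animals or whether libraries were from pooled animals. Replicates are therefore separate libraries by their labels, and the p-values measure the spread between these libraries.

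Adipocytes keep triacylglycerol in droplets coated by perilipins, and release it as fatty acids and glycerol when cAMP rises. The lipase ATGL (Pnpla2), together with its co-activator CGI-58 (Abhd5), removes the first fatty acid, hormone-sensitive lipase (Lipe) the next and monoglyceride lipase (Mgll) the last. G0S2 inhibits ATGL, perilipin 1 holds CGI-58 at the droplet surface until it is phosphorylated, phosphodiesterase 3B lowers cAMP in response to insulin, and aquaporin 7 lets glycerol leave the cell.

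The members lie on 6 mouse chromosomes in the mm10 coordinates of the deposited table. Pnpla2 is at chr7:141455188-141460743, Lipe at chr7:25379527-25395987, Mgll at chr6:88724412-88828360, Abhd5 at chr9:122351616-122381523 and G0s2 at chr1:193272160-193273188. Plin1 is at chr7:79721164-79732776, Plin4 at chr17:56100591-56109802, Cidec at chr6:113424634-113435760, Pde3b at chr7:114415254-114537937 and Aqp7 at chr4:41033074-41048136. RefSeq promoter windows of GRCm38.p6 were found for 9 members, 13 windows in all, and Pde3b is named only. The 5 shown here are those of the lipase that fell most, its co-activator and its inhibitor, the coat protein that binds the co-activator, and the glycerol channel. Each line gives the 250 bases before a start site, 5′ to 3′ on the strand of the gene, and capitals mark the half-site that nuclear receptors bind, AGGTCA, read here on the opposite strand as TGACCT.
Pnpla2, plus strand, chr7:141454938-141455187: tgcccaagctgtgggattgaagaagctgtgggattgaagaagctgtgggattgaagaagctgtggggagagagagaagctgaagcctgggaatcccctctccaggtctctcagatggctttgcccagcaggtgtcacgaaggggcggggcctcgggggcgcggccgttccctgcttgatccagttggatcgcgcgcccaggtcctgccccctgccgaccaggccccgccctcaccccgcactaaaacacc
Abhd5, plus strand, chr9:122351366-122351615: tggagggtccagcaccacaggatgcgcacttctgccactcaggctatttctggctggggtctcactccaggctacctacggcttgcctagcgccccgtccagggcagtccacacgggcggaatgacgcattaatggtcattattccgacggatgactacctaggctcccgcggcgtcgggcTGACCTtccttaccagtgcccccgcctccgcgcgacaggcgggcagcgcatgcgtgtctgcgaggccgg
G0s2, minus strand, chr1:193273189-193273438: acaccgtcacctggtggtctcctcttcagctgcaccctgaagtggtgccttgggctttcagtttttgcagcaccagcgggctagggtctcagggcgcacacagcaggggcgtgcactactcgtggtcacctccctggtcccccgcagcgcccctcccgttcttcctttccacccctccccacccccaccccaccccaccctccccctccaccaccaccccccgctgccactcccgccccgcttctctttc
Plin1, minus strand, chr7:79732777-79733026: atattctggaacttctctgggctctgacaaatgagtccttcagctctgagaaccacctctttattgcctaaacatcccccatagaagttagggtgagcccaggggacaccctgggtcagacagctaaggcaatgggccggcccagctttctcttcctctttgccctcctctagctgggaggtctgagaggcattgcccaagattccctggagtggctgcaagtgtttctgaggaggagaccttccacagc
Aqp7, first of its start sites, minus strand, chr4:41048137-41048386: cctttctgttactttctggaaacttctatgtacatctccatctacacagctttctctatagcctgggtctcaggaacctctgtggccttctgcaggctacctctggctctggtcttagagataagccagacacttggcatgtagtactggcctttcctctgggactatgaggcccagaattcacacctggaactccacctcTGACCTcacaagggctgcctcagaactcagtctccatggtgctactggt
In windows of 300 bases that also hold the first 50 transcribed bases, the half-site was searched on both strands and was found in 3 of the 13 member windows, 1 of Abhd5 and 2 of Aqp7, against 16.3% of 32851 windows of all genes. The Aqp7 windows overlap, and the match 49 bases before the first start is the same site as that 223 bases before the second. The match in Abhd5 began 69 bases before the start and that in the Aqp7 window shown 49 bases before it. The CCAAT box (CCAAT, both strands) was in 1 member window, that of Plin4, against 37.4% of all windows, and the TATA box (TATAAA, both strands) in 0 against 13.6%. The 250 bases before the start were 63.2% G or C in Pnpla2, 64.8% in Abhd5 and 67.2% in G0s2, and 54.0% in Plin1 and 50.8% in Aqp7, where the median of all windows was 52.4%. The Abhd5 sequence held 22 CG dinucleotides and that of Plin1 held 1. These letters describe the windows and show no binding.

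Library totals ran from 24023371 to 50384446 counts. Levels are given as CPM, which puts each library on the same total with edgeR's TMM factors and sets the bulk of genes equal between libraries. Igbp1 was 57.5 to 76.6 CPM in Control and 10.1 to 11.1 in Ai-α4KO iWAT, and 85.4 to 105 in Control and 13.7 to 25.2 in Ai-α4KO BAT, apart in both tissues. Brown adipocyte markers summed to 8047 to 12337 CPM in Control BAT and 127 to 943 in Control iWAT. The 12 adipocyte markers, each with counts in every group, summed to 44195 to 59941 CPM in Control and 16201 to 24828 in Ai-α4KO iWAT, and to 34739 to 37727 and 16666 to 22683 in BAT. The 10 macrophage markers went the other way, with 1445 to 2783 CPM in Control iWAT, 8672 to 11461 in Ai-α4KO iWAT, 295 to 660.4 in Control BAT and 5178 to 8430.1 in Ai-α4KO BAT. In bulk tissue, fewer adipocytes and less RNA per adipocyte cannot be told apart. Skeletal muscle markers summed to 1101 to 12353 CPM in Control BAT and 17134 to 55391 in Ai-α4KO BAT. In iWAT they were at 8415 in Control library 4 and 6399 in Ai-α4KO library 1, and at or below 209 in the other 8 libraries. B cell markers were at 513 and 204 CPM in Control iWAT libraries 1 and 4 and at or below 14.2 elsewhere in iWAT. Results with those libraries left out are given where they change a call. A muscle score was used as a covariate only between genotypes within BAT, and is given where it changes a call. The differences between tissues, their interaction with genotype and the ratios between members were not tested with that score.

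Transcripts for lipolysis and droplet coating were lower in Ai-α4KO mice in both depots. A gene was called where its adjusted p was under 0.01 and its level changed at least 2-fold (edgeR's quasi-likelihood test, Benjamini-Hochberg over all genes tested). All 10 members passed the filter on low counts. In iWAT 8 of the 10 were called lower and 0 higher, where 10.7% of the 14604 genes tested were called lower. In BAT 8 of the 10 were called lower and 0 higher, where 13.3% of 14344 genes were called lower. The members not called were Abhd5 and G0s2 in iWAT, and Abhd5 and Plin4 in BAT. The median log2 fold change of the members was -1.55 in iWAT and -1.81 in BAT, beside 0.015 and -0.03 over all genes tested. The highest Ai-α4KO library was below the lowest Control library for 9 members in iWAT (18.3% of all genes) and 6 in BAT (23.0% of all genes). Together the 10 genes held 0.897% to 1.21% of all counts in Control iWAT and 0.253% to 0.474% in Ai-α4KO iWAT. In BAT they held 0.557% to 0.832% in Control and 0.199% to 0.375% in Ai-α4KO libraries.

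**Figure D1:**
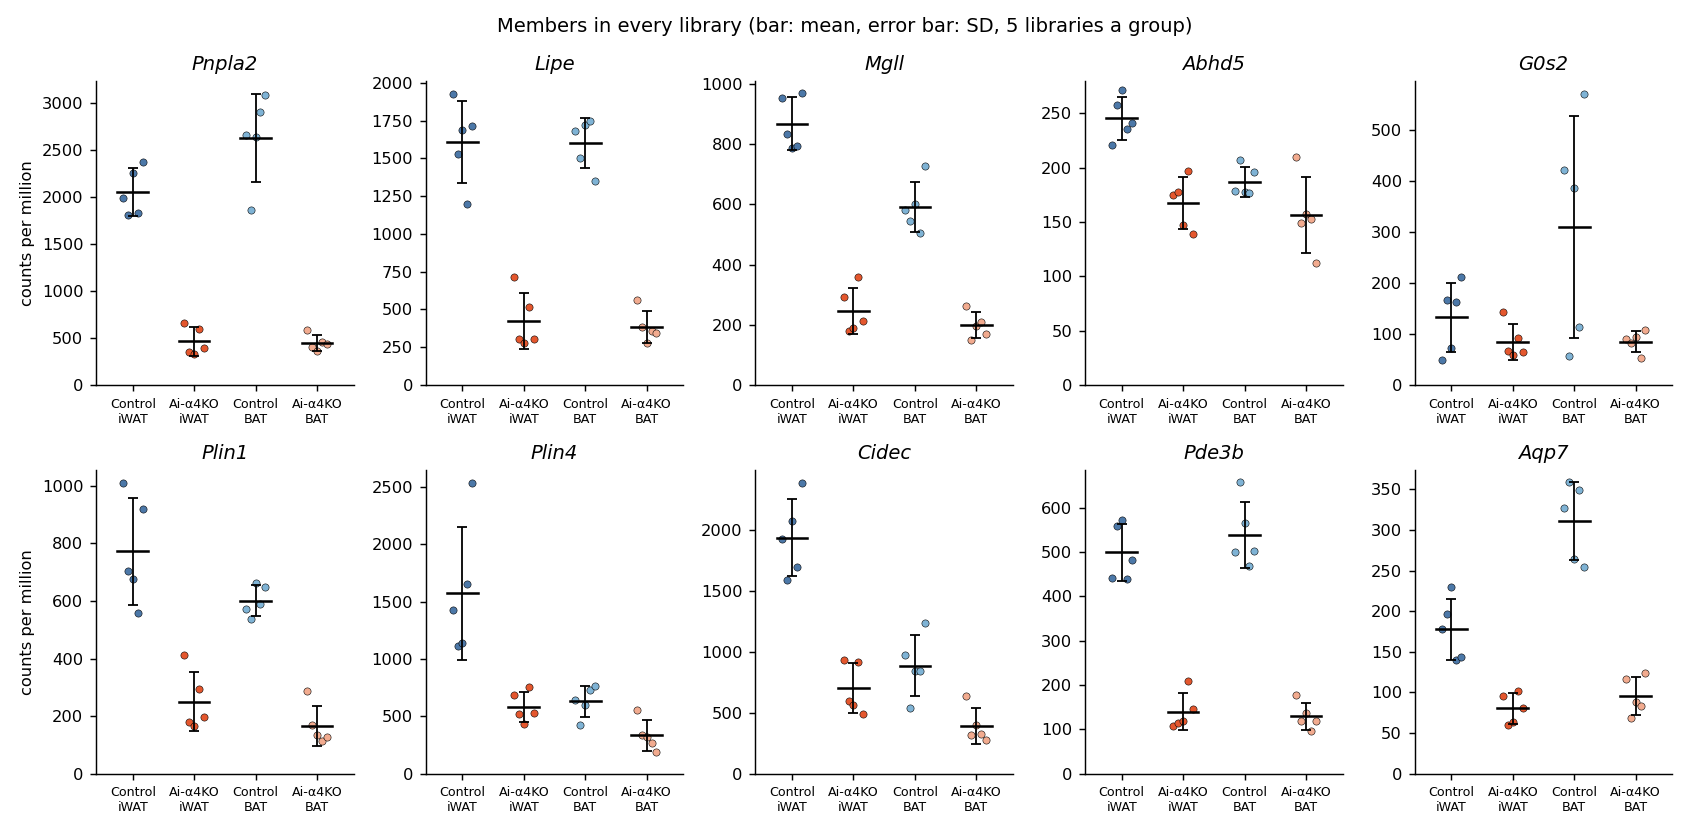
CPM (linear axis from 0) of each member in every library, with 4 groups of 5 libraries in each panel; horizontal bars are means and error bars SD. The groups of Pnpla2, Lipe, Mgll, Plin1, Pde3b and Aqp7 lie apart between genotypes in both tissues, while G0s2 spreads 10.2-fold within Control BAT and Abhd5 overlaps between the genotypes of BAT.

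Pnpla2, the lipase that opens lipolysis, was at 1982, 1811, 2254, 1824 and 2367 CPM in Control iWAT and at 657, 347, 329, 592 and 391 in Ai-α4KO iWAT. Its BAT values were 2658, 1861, 2631, 2899.8 and 3075 CPM in Control and 582, 408, 361, 452 and 436 in Ai-α4KO libraries. No library of one genotype reached the range of the other in either tissue, and the highest Ai-α4KO value in iWAT, that of library 1, was still under the lowest Control value. Pnpla2 fell by 2.15 on a log2 scale (standard error 0.21, edgeR's quasi-likelihood test, adjusted p = 1.41e-05) in iWAT and fell by 2.59 in BAT (standard error 0.18, adjusted p = 2.63e-07). Its mean in Ai-α4KO libraries was 22.6% of the Control mean in iWAT and 17.1% in BAT, the lowest share among the members in each tissue. With each library left out in turn its log2 fold change ranged from -2.31 to -2.04 for iWAT and from -2.71 to -2.53 for BAT.

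Lipe, which cleaves diacylglycerol, was at 1927, 1526, 1685, 1198 and 1712 CPM in Control iWAT and at 713, 305, 279, 515 and 305 in Ai-α4KO iWAT. Its BAT values were 1679, 1505, 1721, 1749 and 1353 CPM in Control and 560.2, 384, 278, 354 and 341 in Ai-α4KO libraries. The genotypes did not overlap, and library 1 was the highest of the Ai-α4KO libraries in each tissue. Lipe fell by 1.93 on a log2 scale (standard error 0.27, edgeR's quasi-likelihood test, adjusted p = 1.39e-04) in iWAT and fell by 2.10 (standard error 0.18, adjusted p = 1.17e-06) in BAT. The gene overlaps 4732471J01Rik on the opposite strand, which was at a mean of 0.644 CPM.

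Mgll, whose product releases the last fatty acid and glycerol, was at 954, 835, 788, 794 and 969 CPM in Control iWAT and at 293, 181, 189, 358 and 214 in Ai-α4KO iWAT. In BAT the values were 582, 544, 601, 506 and 726 CPM in Control and 264, 151, 198, 211 and 171 in Ai-α4KO libraries. These ranges were also apart in both tissues. Mgll fell by 1.82 on a log2 scale (standard error 0.20, edgeR's quasi-likelihood test, adjusted p = 2.25e-05) in iWAT and fell by 1.61 (standard error 0.16, adjusted p = 4.50e-06) in BAT. The 3 lipases were thus called lower in both depots, and kept that call with each of the 10 libraries of a tissue left out in turn.

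Abhd5, the co-activator of ATGL, stayed closest to its Control level. In iWAT it was at 221, 258, 272, 235 and 241 CPM in Control and at 175, 177, 148, 197 and 139 in Ai-α4KO libraries. Control BAT libraries held 178, 207, 178, 176 and 196 CPM and Ai-α4KO BAT libraries 209.5, 149, 157, 153 and 112. The iWAT ranges were apart, while in BAT the highest value of all 10 libraries was that of Ai-α4KO library 1. The log2 fold change of Abhd5 was -0.56 in iWAT (standard error 0.12, edgeR's quasi-likelihood test, adjusted p = 0.00191), past the adjusted p but under a fold of 2. In BAT it was -0.30 (standard error 0.14, adjusted p = 0.0847), past neither threshold.

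G0s2, the inhibitor of ATGL, varied most within the Control groups. It was at 49.8, 167, 73.4, 162 and 211 CPM in Control iWAT and at 143, 66.6, 58.0, 93.0 and 64.6 in Ai-α4KO iWAT. The BAT values were 422, 56.2, 386, 114 and 570.4 CPM in Control and 90.4, 82.1, 93.6, 52.6 and 108 in Ai-α4KO libraries. Control BAT libraries 2 and 4 lay far below the other 3, and library 2 was within the Ai-α4KO range, so the genotypes overlapped in both tissues. The SD of log2 CPM was 1.43 in Control BAT and 0.89 in Control iWAT for G0s2, where it was at most 0.43 and 0.48 for any other member in those groups. The log2 fold change was -0.65 in iWAT (standard error 0.39, edgeR's quasi-likelihood test, adjusted p = 0.18), past neither threshold. In BAT G0s2 fell by 1.90 (standard error 0.51, adjusted p = 0.00654), a call that held with Control library 2 or Control library 4 left out and was lost with any of the other 8 libraries left out (adjusted p up to 0.0188). It was also lost with the skeletal muscle marker score as a covariate, at a log2 fold change of -1.56 (adjusted p = 0.131), at -1.63 without TMM factors (edgeR's quasi-likelihood test, adjusted p = 0.0146) and at -1.21 with limma on log2(FPKM + 1) (adjusted p = 0.0813).

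Plin1, which encodes the main coat protein of adipocyte droplets, was at 1010.0, 705, 676, 557 and 918 CPM in Control iWAT and at 412, 181, 167, 294 and 196 in Ai-α4KO iWAT. Brown fat held 570.4, 537, 661, 589 and 648 CPM in Control and 286, 171, 133, 113 and 126 in Ai-α4KO libraries. The ranges were apart in both tissues, with library 1 highest among the Ai-α4KO libraries of each. Plin1 fell by 1.63 on a log2 scale (standard error 0.27, edgeR's quasi-likelihood test, adjusted p = 4.11e-04) in iWAT and fell by 1.90 (standard error 0.23, adjusted p = 2.08e-05) in BAT.

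Plin4, a perilipin of white adipocytes, was at 1427, 1111, 1139.8, 1650.4 and 2531 CPM in Control iWAT and at 686, 517, 433, 752 and 526 in Ai-α4KO iWAT. In BAT it was at 643, 423, 595, 725 and 763 CPM in Control and at 556, 341, 317, 267 and 188 in Ai-α4KO libraries. The ranges were apart in iWAT and met in BAT, where Ai-α4KO library 1 exceeded Control library 2. Plin4 fell by 1.44 in iWAT on the log2 scale (standard error 0.24, edgeR's quasi-likelihood test, adjusted p = 4.91e-04). Its log2 fold change in BAT was -0.96 (standard error 0.26, adjusted p = 0.00621), short of a fold of 2, and became a call at -1.09 without Control library 2 and at -1.21 without Ai-α4KO library 1. The gene overlaps Hdgfrp2 on the opposite strand, at a mean of 21.4 CPM, and whether strand was used in counting is not given in the sources used here.

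Cidec, whose product moves lipid from small to large droplets, was at 1926, 1593, 2076, 1694 and 2386 CPM in Control iWAT and at 936, 599.5, 567, 915 and 494 in Ai-α4KO iWAT. In brown fat the values were 971, 541, 840.0, 845 and 1238 CPM in Control and 641, 319.6, 403, 326 and 274 in Ai-α4KO libraries. The iWAT ranges were apart, and in BAT Ai-α4KO library 1 again lay above Control library 2. Cidec fell by 1.47 on a log2 scale (standard error 0.20, edgeR's quasi-likelihood test, adjusted p = 1.29e-04) in iWAT and fell by 1.22 (standard error 0.26, adjusted p = 0.00146) in BAT. With the skeletal muscle marker score as a covariate, its log2 fold change in BAT was -0.99 (adjusted p = 0.0686), no longer a call. It was also short of a fold of 2 without TMM factors, at -0.94, and with limma on log2(FPKM + 1), at -0.96. Under each of these settings Cidec and G0s2 were lost and 6 members were called lower in BAT in place of 8.

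Pde3b, the insulin-regulated phosphodiesterase that opposes lipolysis, was at 442, 559, 572, 439 and 483 CPM in Control iWAT and at 109, 114, 118, 209.9 and 146 in Ai-α4KO iWAT. Control BAT had 499.9, 657, 565, 469 and 502 CPM and Ai-α4KO BAT had 177, 118, 137, 95.7 and 119. The gap between genotypes was wide in both tissues, and Pde3b fell by 1.85 on a log2 scale (standard error 0.19, edgeR's quasi-likelihood test, adjusted p = 1.65e-05) in iWAT and fell by 2.09 (standard error 0.17, adjusted p = 7.15e-07) in BAT. The transcript of this brake on lipolysis thus fell along with those of the lipases.

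Aqp7, the glycerol channel, was at 178, 196, 229, 140.2 and 144 CPM in Control iWAT and at 96.1, 59.4, 63.1, 102 and 81.2 in Ai-α4KO iWAT. In BAT the channel was at 327, 359, 265, 349 and 254 CPM in Control and at 117, 68.2, 88.6, 83.4 and 124 in Ai-α4KO libraries. The ranges were apart in each tissue. Aqp7 fell by 1.15 on a log2 scale (standard error 0.19, edgeR's quasi-likelihood test, adjusted p = 4.04e-04) in iWAT and fell by 1.73 (standard error 0.18, adjusted p = 5.01e-06) in BAT.

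**Figure D2:**
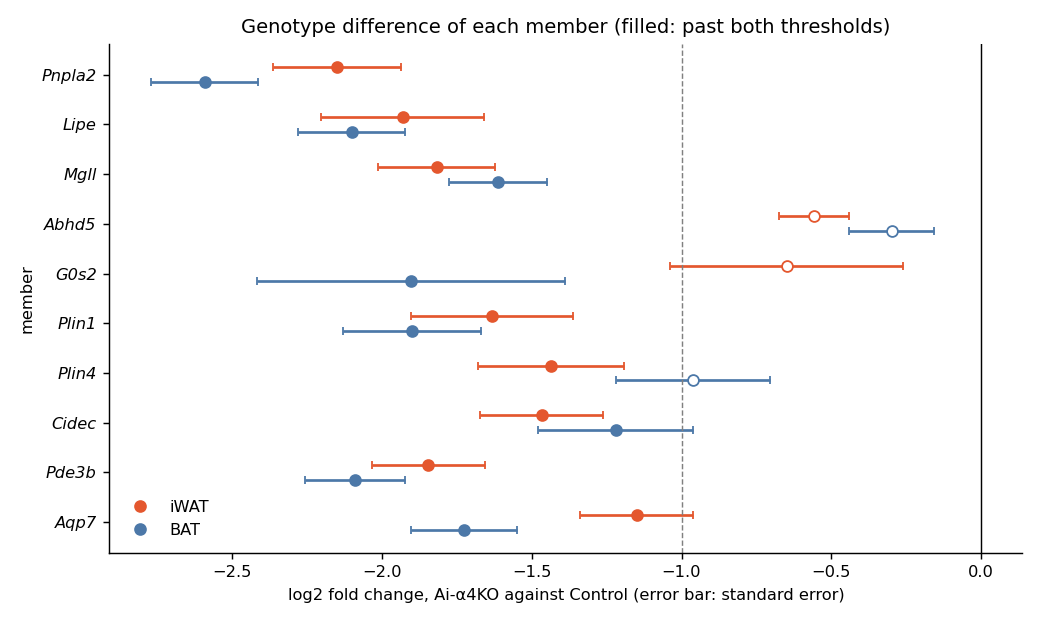
Log2 fold change of Ai-α4KO against Control for each member in iWAT and BAT (horizontal axis), with standard errors; filled points passed both thresholds and the dashed line marks a fold of 2. All points lie below 0, from -2.59 for Pnpla2 in BAT to -0.30 for Abhd5 in BAT.

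Per transcript length, the deposited FPKM values (fragments scaled by transcript width and library total) gave the order of levels between members. In Control iWAT Cidec was highest at 1009 ± 156 FPKM, followed by Pnpla2 at 675 ± 69.4 and Lipe at 442 ± 79.4 (SD, n = 5 each). Plin1 (364 ± 98.0), Plin4 (247 ± 94.2), Mgll (169 ± 23.3) and G0s2 (143 ± 75.3) came next, each overlapping its neighbour in the order. Pde3b (84.5 ± 8.05), Abhd5 (69.9 ± 3.31) and Aqp7 (62.8 ± 10.6) were lowest, and the last pair overlapped. In Control BAT Pnpla2 led at 753 ± 154 FPKM (SD, n = 5), ahead of Cidec at 403 ± 124, Lipe at 380 ± 42.8, G0s2 at 287 ± 204 and Plin1 at 244 ± 24.8, and neighbours among these overlapped. Mgll (99.4 ± 15.5), Aqp7 (95.5 ± 14.6), Plin4 (85.5 ± 20.5) and Pde3b (78.8 ± 8.11) formed a lower group, and Abhd5 was lowest at 46.1 ± 2.91, apart from Pde3b. Cidec led in Ai-α4KO iWAT at 401 ± 122 FPKM, apart from Pnpla2 at 167 ± 56.6, and also in Ai-α4KO BAT at 209 ± 84.3, where it overlapped Pnpla2 at 151 ± 31.5 (SD, n = 5 each). By the mean, Abhd5 moved from the lowest place in Control BAT to place 7 in Ai-α4KO BAT, at 45.3 ± 11.2 FPKM. Pde3b had the lowest mean in both Ai-α4KO groups, at 25.8 ± 7.77 in iWAT and 22.5 ± 6.03 in BAT. Each neighbouring pair overlapped in Ai-α4KO BAT, and Pde3b overlapped Aqp7 in Ai-α4KO iWAT.

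Between the depots of Control mice, Plin4 and Cidec were lower in BAT. In a fit of all 20 libraries these 2 of the 10 members differed past both thresholds, a share near that of all genes, where 22.7% of 15230 did so in either direction, and 6 members had an unadjusted p below 0.05, where 57.5% of all genes did. Plin4 was lower in BAT by a log2 difference of -1.32 (standard error 0.27, edgeR's quasi-likelihood test, adjusted p = 4.41e-04) and Cidec by -1.13 (standard error 0.25, adjusted p = 8.32e-04). Mgll and Abhd5 were lower in every Control BAT library than in every Control iWAT library, at log2 differences of -0.55 and -0.39 (edgeR's quasi-likelihood test, adjusted p = 0.0157 and 0.0188), past neither threshold. Aqp7 was higher in Control BAT by 0.81 (standard error 0.19, adjusted p = 0.00151), under a fold of 2, and G0s2 by 1.22 (standard error 0.49, adjusted p = 0.0433), past the fold and not the adjusted p. Without Control BAT library 2 the difference of Cidec was -0.99 (edgeR's quasi-likelihood test, adjusted p = 0.00284), no longer a call, and that of G0s2 was 1.49 (adjusted p = 0.00747), which became one. In Ai-α4KO mice 0 of the 10 members differed between depots past both thresholds by edgeR or by DESeq2, where 12.6% of all genes did by edgeR, and 3 had an unadjusted p below 0.05, where 48.8% of all genes did. The values closest to a call there were those of Cidec at -0.84 (adjusted p = 0.0108) and Plin4 at -0.80 (edgeR's quasi-likelihood test, adjusted p = 0.0218).

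Whether the genotype difference itself differed between depots was tested as an interaction. The interaction passed an adjusted p below 0.01 for 0 of the 10 members (edgeR's quasi-likelihood test), where 4.86% of 15230 genes passed, and for 0 by DESeq2. At an unadjusted p below 0.05 edgeR also gave 0 members, where 31% of all genes passed. The largest estimate was that of G0s2, with a fall larger in BAT by -1.22 and a standard error of 0.69 (adjusted p = 0.237), and the smallest adjusted p was that of Aqp7, at -0.55 (standard error 0.27, adjusted p = 0.169). Standard errors of the interaction ran up to 0.69 for G0s2, so the absence of a call does not show that the genotype difference was equal in both depots.

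The fall of the members was set beside that of other adipocyte transcripts. Of the 12 adipocyte markers, none of them a member, 10 were called lower in iWAT and 9 in BAT, where 10.7% and 13.3% of all genes were. Their medians were -1.64 and -1.56 on the log2 scale against -1.55 and -1.81 for the members. Across the 20 libraries, the mean of the members' standardized log2 CPM was most like Adipoq, the adiponectin gene, with a Pearson's r of 0.990, followed by Aco1 (0.982), Acbd4 (0.979), Pxmp4 (0.979) and Sh3glb2 (0.976). With the group means subtracted, Adipoq was again first (r = 0.923), ahead of Gpt (0.889), Ces1f (0.873), Ctdspl (0.862) and Tmem120a (0.855). These correlations are descriptions over 20 libraries that share 4 groups and a common scaling. Within groups, Lipe and Plin1 had the highest correlation of any pair of members (r = 0.887), and that of G0s2 and Aqp7 was the lowest (r = -0.18). The r of each member to the mean of the other members within groups was highest for Cidec (0.843), Pnpla2 (0.829), Mgll and Plin1 (0.827 each). It was lowest for Pde3b (0.387), Aqp7 (0.335) and G0s2 (0.275).

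**Figure D3:**
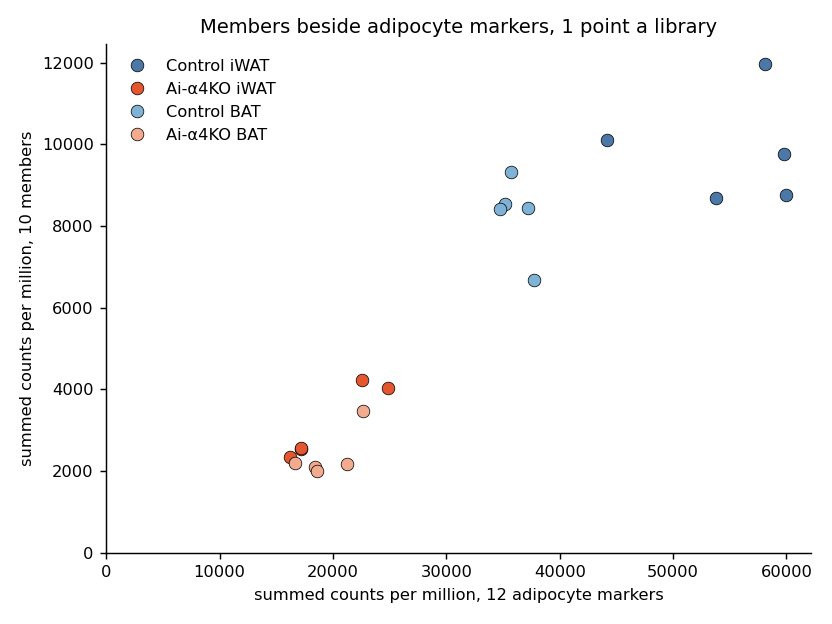
Summed CPM of the 10 members (vertical axis) against summed CPM of the 12 adipocyte markers (horizontal axis), both linear from 0, with 1 point for each of the 20 libraries. The Control libraries lie between 6690.1 and 11962 CPM of the members and the Ai-α4KO libraries between 1999 and 4221.

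When each library was scaled so that the mean log2 CPM of the adipocyte markers was equal, 2 of the 10 members were called in each tissue. This scaling moved the median of all genes to 1.78 in iWAT and 1.39 in BAT on the log2 scale, so values under it are relative to the markers and not to a typical gene. In iWAT Abhd5 was higher by 1.18 (standard error 0.22, edgeR's quasi-likelihood test, adjusted p = 1.01e-04) and G0s2 by 1.12 (standard error 0.29, adjusted p = 0.00177), and 0 of the 10 were called lower. Over all genes 76.6% were called higher and 0.644% lower on that scale, so both members rose less than the median gene. The value of G0s2 fell to 0.96 without Control libraries 1 and 4, to 0.95 without Control library 1 and to 0.99 without Ai-α4KO library 1, which ended its call. In BAT Abhd5 was higher than the markers by 1.07 (standard error 0.19, adjusted p = 3.10e-05), where 66.3% of all genes were called higher. Pnpla2 was lower than the markers by a log2 difference of -1.19 (standard error 0.23, edgeR's quasi-likelihood test, adjusted p = 1.05e-04), where 1.21% of all genes were called lower. That call was lost with 4 markers (Lep, Retn, Slc2a4 and Adrb3) left out, at -0.97, and with the muscle score as a covariate, at -1.09 (adjusted p = 0.0175). Lipe at -0.73 and Pde3b at -0.72 passed the adjusted p in BAT (0.00571 and 0.00279, edgeR's quasi-likelihood test) but not the fold. The remaining members were not called and lay between -0.46 and 0.53 for iWAT and between -0.56 and 0.37 for BAT.

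**Figure D4:**
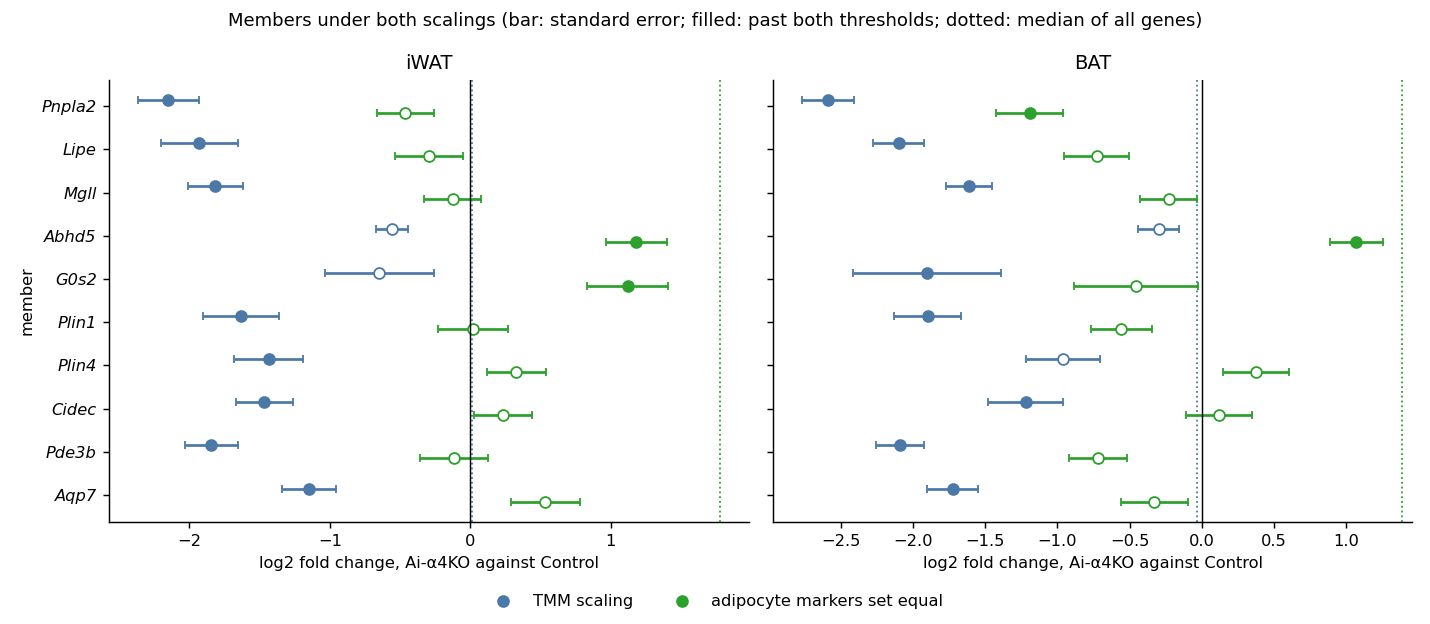
Log2 fold change of Ai-α4KO against Control for each member under TMM scaling and with the adipocyte markers set equal, in iWAT and BAT, with standard errors; filled points passed both thresholds and dotted lines mark the median of all genes under each scaling (1.78 in iWAT and 1.39 in BAT with the markers set equal). Under the second scaling Abhd5 lies above 0 in both tissues, and Pnpla2, Lipe, Pde3b and Plin1 are the lowest in BAT, from -1.19 to -0.56.

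Ratios between members within a library do not depend on how libraries are scaled. The 6 ratios were compared between genotypes in each tissue by an exact permutation test, two-sided, over all arrangements of 5 against 5 libraries, with p-values adjusted over the 12 tests (Benjamini-Hochberg). The smallest p this permutation test allows is 0.00794, which any ratio with groups apart reaches whatever the size of the gap. The log2 ratio of the co-activator Abhd5 to the coat protein Plin1, which binds it, was -2.19, -1.45, -1.31, -1.24 and -1.93 in Control iWAT and -1.23, -0.03, -0.18, -0.57 and -0.50 in Ai-α4KO iWAT. The BAT ratios were -1.68, -1.37, -1.89, -1.74 and -1.73 in Control and -0.45, -0.19, 0.24, 0.44 and -0.17 in Ai-α4KO libraries. The ratio was higher in every Ai-α4KO library than in every Control library of its tissue, by 1.12 in iWAT and 1.66 in BAT (exact p = 0.00794 each, adjusted p = 0.0238 by the permutation test), although Ai-α4KO library 1 and Control library 4 of iWAT lay side by side at -1.23 and -1.24. Without Control iWAT libraries 1 and 4 the iWAT difference was 1.06 and did not pass an adjusted p of 0.05 (exact permutation test, adjusted p = 0.0714).

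The ratio of the lipase Pnpla2 to its inhibitor G0s2 was 5.32, 3.44, 4.94, 3.49 and 3.49 on the log2 scale in Control iWAT and between 2.21 and 2.67 in the 5 Ai-α4KO libraries. The groups were apart and the ratio fell by 1.66 (exact permutation test, p = 0.00794, adjusted p = 0.0238). In BAT the values were 2.65, 5.05, 2.77, 4.67 and 2.43 in Control and 2.69, 2.31, 1.95, 3.11 and 2.02 in Ai-α4KO libraries, which overlapped (difference -1.10, exact permutation test, p = 0.103, adjusted p = 0.155). Control BAT libraries 2 and 4, those with little G0s2, held the high ratios.

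Among droplet proteins, the ratios of Plin4 and of Cidec to Plin1 were higher in Ai-α4KO BAT. The log2 ratio of Plin4 to Plin1 was 0.17, -0.34, -0.15, 0.30 and 0.24 in Control BAT and 0.96, 0.999, 1.25, 1.24 and 0.58 in Ai-α4KO BAT, with no overlap between libraries (difference 0.96, exact permutation test, p = 0.00794, adjusted p = 0.0238). The ratio of Cidec to Plin1 differed by 0.75 in BAT (exact permutation test, p = 0.0159, adjusted p = 0.0381) with ranges that met, and it no longer passed an adjusted p of 0.05 in 7 of the 10 cases with 1 library left out (up to 0.0571). In iWAT the differences were 0.29 for Plin4 to Plin1 (exact permutation p = 0.373) and 0.19 for Cidec to Plin1 (exact permutation p = 0.31). Whether these differences themselves differ between tissues was not tested.

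The lipases were compared by the ratios of Lipe to Pnpla2 and of Mgll to Lipe, and the ratio of Mgll to Pnpla2 was not tested. The log2 ratio of Lipe to Pnpla2 differed by 0.18 in iWAT (exact permutation p = 0.183, adjusted p = 0.243) and by 0.45 in BAT (exact permutation p = 0.0317, adjusted p = 0.0635). The ratio of Mgll to Lipe differed by 0.15 in iWAT (exact permutation p = 0.381) and by 0.51 in BAT (exact permutation p = 0.0556, adjusted p = 0.0952). The libraries overlapped in each of these 4 comparisons, and none passed an adjusted p of 0.05 with all libraries.

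**Figure D5:**
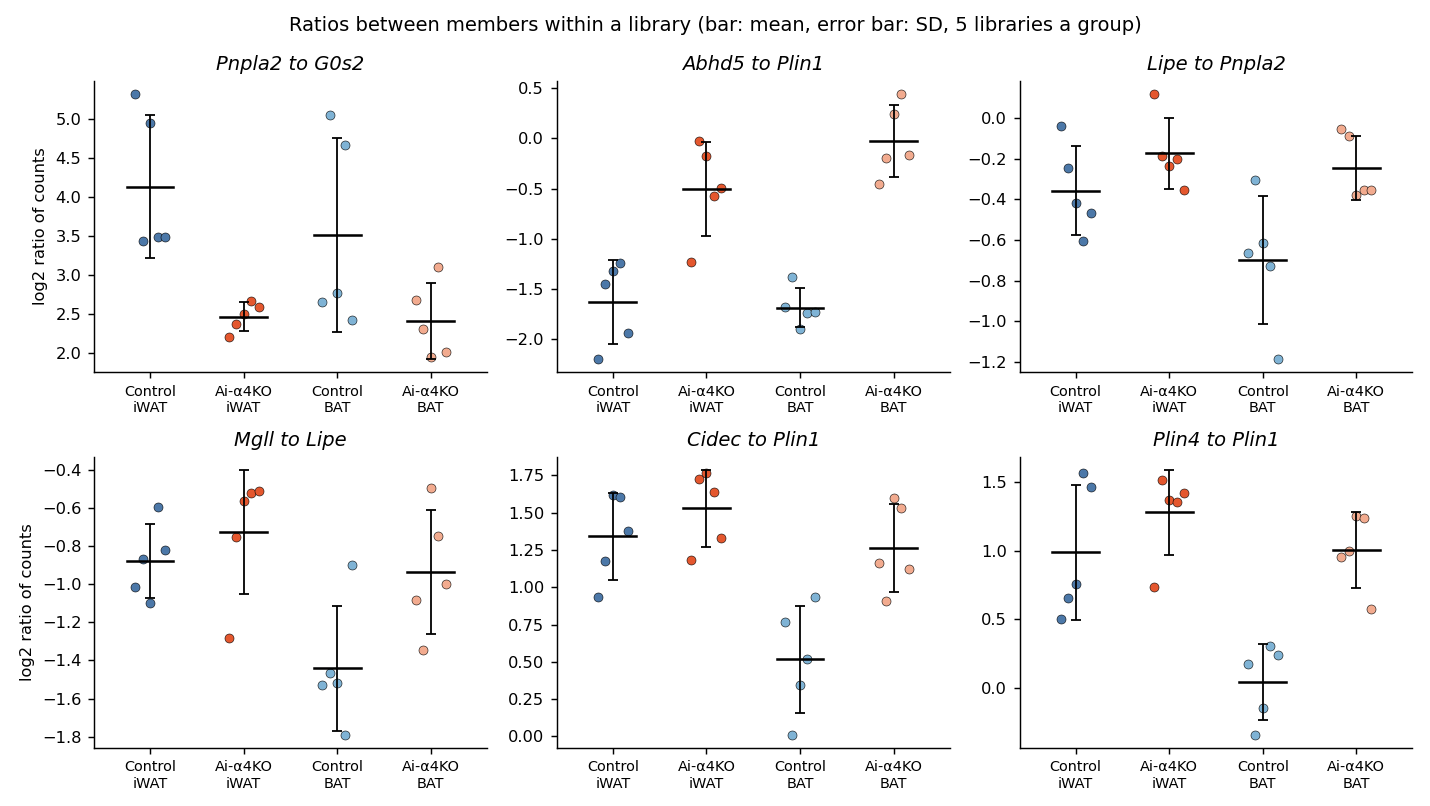
Log2 ratio of counts between members within each library, in 6 panels with 4 groups of 5 libraries; horizontal bars are means and error bars SD, and the vertical axes do not start at 0. The ratio of Abhd5 to Plin1 is higher in Ai-α4KO libraries of both tissues, by 1.12 in iWAT and 1.66 in BAT, and that of Pnpla2 to G0s2 is lower in Ai-α4KO iWAT by 1.66.

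Other genes of lipid hydrolysis and its control were taken from fixed lists. Over all genes tested, 10.7% were called lower in iWAT and 13.3% in BAT. The medians over all genes were 0.015 and -0.03 on the log2 scale, and the share called higher is not given here. Of 12 other lipases and fatty acid chaperones, 6 were called lower and 1 higher in iWAT, and 5 lower and 1 higher in BAT (medians -1.04 and -0.67 on the log2 scale). The carboxylesterase gene Ces1d had the lowest estimates, from 1754 ± 319 CPM in Control to 137 ± 49.8 in Ai-α4KO iWAT (SD, n = 5 each), where it fell by 3.69 on a log2 scale, and it fell by 3.45 in BAT. It belongs to a family of similar genes, and how shared reads were divided in counting is not given in the sources used here. Pnpla3, a relative of Pnpla2, fell by 2.19 in iWAT and fell by 2.28 in BAT. The lysosomal acid lipase gene Lipa rose by 1.05 in iWAT (edgeR's quasi-likelihood test, adjusted p = 8.40e-05), from 85.4 ± 5.38 to 177 ± 35.1 CPM (SD, n = 5 each), and was at 0.11 in BAT (adjusted p = 0.405), not called, with ranges that overlapped. Daglb, a diacylglycerol lipase gene, rose by 1.37 in BAT and stood at 0.98 in iWAT, just under the fold. Fabp5, a fatty acid binding protein gene, was at 0.95 in BAT, also short of it, and at -0.54 in iWAT (edgeR's quasi-likelihood test, adjusted p = 0.122).

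Of 16 other lipid droplet proteins, 5 were called lower and 1 higher of the 15 tested in iWAT, and 3 lower and 1 higher in BAT (medians -0.29 and -0.34). Over all genes 10.7% were called lower in iWAT and 13.3% in BAT, and the BAT count is near that share. Plin2, the perilipin found on droplets of most cell types, rose by 1.20 in iWAT, from 670.1 ± 182 to 1546 ± 193 CPM (SD, n = 5 each), opposite in direction to Plin1 and Plin4 there. In BAT it was at 0.25 (edgeR's quasi-likelihood test, adjusted p = 0.43) and was not called. Cidea, the relative of Cidec that is abundant in brown fat, fell by 2.65 in BAT, from 3413 ± 553 to 558 ± 197 CPM (SD, n = 5 each), and fell by 4.95 in iWAT. Cideb, at 1.75 CPM or less on average in iWAT, fell by 2.55 there and fell by 3.45 in BAT. Fitm1, a fat storage-inducing protein gene of muscle, rose by 2.24 in BAT, where skeletal muscle markers were also higher, and their part in this value was not tested. It did not pass the filter on low counts in iWAT. Hilpda, an inhibitor of ATGL like G0s2, was not called at log2 fold changes of 0.82 (iWAT, adjusted p = 0.0106) and 0.58 (BAT, edgeR's quasi-likelihood test, adjusted p = 0.0247).

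Of 16 genes of cAMP signaling to lipolysis, 6 were called lower and 1 higher in iWAT, and 9 lower and 1 higher in BAT (medians -0.59 and -1.12). The shares of all genes called lower were 10.7% and 13.3%. Prkar2b, the regulatory subunit of protein kinase A that predominates in adipocytes, fell by 1.87 in iWAT, from 1032 ± 112 to 285 ± 72.4 CPM, and fell by 2.58 in BAT, from 2065 ± 291 to 353 ± 64.9 CPM (SD, n = 5 each). The other type II subunit, Prkar2a, was at 0.56 in iWAT and 0.73 in BAT and was not called. Among phosphodiesterases, Pde4d fell by 1.47 in iWAT and was at -0.56 in BAT (edgeR's quasi-likelihood test, adjusted p = 0.0753), not called. Pde3a fell by 2.17 in BAT at low levels, from 3.90 to 0.878 CPM on average, and was at -0.93 in iWAT (edgeR's quasi-likelihood test, adjusted p = 0.153), not called. Pde4b rose by 1.07 in iWAT and by 1.90 in BAT, opposite to Pde3b. Macrophage markers were called higher for 8 of 10 in iWAT (median 1.71 on the log2 scale) and 10 of 10 in BAT (median 3.95). Pde4b rose in both tissues, while Lipa and Plin2 were called in iWAT and not in BAT, and the part of these cells in those values was not tested.

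Of 4 other glycerol genes, 3 were tested in each tissue. Gyk, the glycerol kinase gene, rose by 1.99 in iWAT, from 13.6 ± 3.70 to 54.0 ± 12.2 CPM, and by 1.15 in BAT, from 117 ± 39.2 to 266 ± 21.3 CPM (SD, n = 5 each). The channel gene Aqp9 rose by 2.45 in iWAT and by 3.19 in BAT at low levels, with group means up to 11.1 CPM. Aqp11 fell by 1.70 in iWAT and was at -0.49 in BAT, not called. Gyk and Aqp9 thus moved opposite to Aqp7 in both tissues, while Aqp11 fell with it in iWAT.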

How the data were processed

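The authors deposited 1 table with an expected count (an estimated read number that need not be whole, not normalized) and an FPKM value per gene for each of 20 libraries, 5 in each of 4 groups. Libraries were stranded mRNA, read as pairs of 150 bp. The submitters' processing notes name bcl2fastq 2, STAR 2.5.3a and mm10, and the counting tool is not given in the sources used here. Expected counts were rounded and analysed with R 4.3.3 and edgeR 4.0.16 (filterByExpr, TMM, glmQLFit and glmQLFTest, Benjamini-Hochberg over all genes tested), within each tissue for genotypes and over 20 libraries for tissues and the interaction. Log2 CPM used a prior count of 2. Ratios were compared by exact permutation tests. The methods were tested on simulated data. DESeq2 1.42.0, limma 3.58.1 on FPKM, other normalizations, filters and left-out libraries were the alternatives, and leaving out libraries by muscle markers and the muscle score were added after the data were seen.

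All 10 members are named whatever their values, with Igbp1 as the targeted gene, the 2 highest and 2 lowest log2 fold changes of each pathway list in a tissue, and the 5 genes most like the members. The members, lists and markers were chosen with earlier results of these data known. Gyk is the table's older symbol of Gk. Marker lists gave these calls, higher and lower of those tested, where 10.7% of all genes were called lower in iWAT and 13.3% in BAT. For brown adipocytes they were 0 and 5 of 7 in iWAT and 0 and 3 of 8 in BAT, and for neutrophils 4 and 0 of 6 and 6 and 0 of 6. For B cells they were 0 and 1 of 7 and 1 and 0 of 3, and for skeletal muscle 0 and 0 of 10 and 7 and 0 of 10. Stromal markers gave 1 and 0 of 8 and 2 and 0 of 8, endothelial markers 0 and 3 of 6 in each tissue, and mammary epithelial markers 0 and 0 of 4 in iWAT. A planned search of the lipase proteins for a motif was not run, since the reference files used here held no protein table.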

Additional observations from a re-analysis of the deposited data

Results flagged for a closer look

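Of 88 quantities and groups examined, 4 held 1 library far from the other 4, where chance gives about 1 in 20 of such groups. The gap to the nearest library was divided by the range of the group. It was 0.977 for the skeletal muscle markers of Control iWAT (library 4, 8415 CPM) and 0.979 for those of Ai-α4KO iWAT (library 1, 6399 CPM). It was 0.796 for the log2 ratio of Plin4 to Plin1 in Ai-α4KO iWAT, where library 1 was at 0.74. It was 0.870 for the summed CPM of the members in Ai-α4KO BAT, where library 1 was at 3484 CPM.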

How the results depend on the processing

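Of the 8 members called lower in iWAT, 8 were called under each alternative. In BAT the count of 8 was 6 without TMM factors, with limma on log2(FPKM + 1) or log2(FPKM + 0.1) and with the muscle score, each without Cidec and G0s2, and 7 to 9 with each library left out. Between tissues in Control mice 2 members were called, 3 with the adjusted p threshold at 0.05 and the same fold, and 2 without Control BAT library 2, where G0s2 took the place of Cidec. The counts of 0 for the tissue difference in Ai-α4KO mice and for the interaction stayed at 0 under each alternative run, which did not include the muscle score. Relative to the adipocyte markers, 2 members were called in iWAT and 1 without Control libraries 1 and 4 (1 to 2 with each library left out), and 2 in BAT and 1 with fewer markers or the muscle score (2 to 2).

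With the replicate block, the smallest exact p that 5 pairs allow is 0.0625, so no ratio could pass 0.05 for Pnpla2 to G0s2 in iWAT (-1.66), Abhd5 to Plin1 in iWAT (1.12) and BAT (1.66), Cidec to Plin1 in BAT (0.75) or Plin4 to Plin1 in BAT (0.96). In the counts the block left 8 members called in iWAT and 7 in BAT, where G0s2 was lost (-1.54, edgeR's quasi-likelihood test, adjusted p = 0.0123). The deviations of same-numbered libraries from their group means correlated at r from -0.45 to 0.24 and not every library was most like its own number, so the numbers were not taken as pairs. Without Control iWAT libraries 1 and 4 Abhd5 to Plin1 was 1.06 (exact permutation, adjusted p = 0.0714). With each library left out, Abhd5 to Plin1 was 0.98 to 1.31 in iWAT and 1.54 to 1.76 in BAT, Pnpla2 to G0s2 -1.84 to -1.37 in iWAT, and Plin4 to Plin1 0.87 to 1.07 in BAT, and each kept an adjusted p below 0.05. Cidec to Plin1 in BAT was 0.62 to 0.85 and lost it in 7 of 10 cases (exact permutation, adjusted p up to 0.0571). Lipe to Pnpla2 in BAT was 0.33 to 0.55 and passed without Control library 2 (0.55, exact permutation, adjusted p = 0.019), and Mgll to Lipe in BAT was 0.40 to 0.64 and passed without Control library 5 (0.64, exact permutation, adjusted p = 0.0317). No result changed direction past a threshold.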
